A study of Mus musculus with 6 samples.

Results

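The tight junction genes described here are 9 genes taken by symbol from the count tables of mouse back skin epidermis: the claudin genes Cldn1, Cldn3, Cldn4, Cldn6, Cldn7, Cldn8 and Cldn23, the occludin gene Ocln and Tjp1, which encodes the scaffold protein ZO-1. All 9 symbols were among the 24014 genes listed, and 8 passed the filter on low counts, Cldn6 being the exception. The study sequenced RNA purified on oligo-dT beads of epidermal cells from wild type newborn mice on postnatal day 2, in 3 libraries from skin healing after a suction blister and 3 from control skin of the same age. Blisters of about 3 mm were raised by negative pressure of 523.4 ± 1.3 mmHg with a syringe of 4 mm diameter. Cells of both groups were freed with 0.25% trypsin and passed through a 70 µm filter. How long the skin healed and how many animals made up a library could not be read from the labels. The p-values therefore measure only the spread of these libraries, part of which may be technical.

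Tight junctions are the belts of contact that close the space between epithelial cells to water, ions and larger molecules. Claudins, membrane proteins that cross the membrane several times, pair between neighbouring cells to form the strands, and different claudins give strands of different permeability. Occludin and its relatives lie in the same strands, and ZO proteins tie them to the actin cytoskeleton. In the epidermis functional tight junctions lie in the granular layer, below the cornified layer, and mice without claudin 1 die soon after birth from loss of water through the skin.

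The upstream sequences of 3 claudin genes are shown as context, and no link between them and the expression results was tested. They belong to Cldn1, the claudin gene with the most counts, and to Cldn3 and Cldn4, neighbours on chromosome 5 in the RefSeq annotation of GRCm38.p6. Cldn3 was called lower in blister libraries and Cldn4 was not called. Each sequence is the 250 bases before the RefSeq start of the gene, 5′ to 3′ on the strand of the gene, in lower case with any match to the AP-1 motif TGANTCA in capitals.
Cldn1, GRCm38.p6 chr16:26371840-26372089, minus strand: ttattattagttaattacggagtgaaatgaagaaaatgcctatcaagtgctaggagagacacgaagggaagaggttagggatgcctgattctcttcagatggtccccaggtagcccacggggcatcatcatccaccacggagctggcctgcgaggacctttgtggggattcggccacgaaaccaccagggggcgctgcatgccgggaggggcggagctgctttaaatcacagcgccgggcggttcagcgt
Cldn3, GRCm38.p6 chr5:134985964-134986213, plus strand: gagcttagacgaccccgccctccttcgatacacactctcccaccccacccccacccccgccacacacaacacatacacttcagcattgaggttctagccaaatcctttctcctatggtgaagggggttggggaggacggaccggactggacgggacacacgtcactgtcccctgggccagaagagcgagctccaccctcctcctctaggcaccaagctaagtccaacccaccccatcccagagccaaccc
Cldn4, GRCm38.p6 chr5:134946935-134947184, minus strand: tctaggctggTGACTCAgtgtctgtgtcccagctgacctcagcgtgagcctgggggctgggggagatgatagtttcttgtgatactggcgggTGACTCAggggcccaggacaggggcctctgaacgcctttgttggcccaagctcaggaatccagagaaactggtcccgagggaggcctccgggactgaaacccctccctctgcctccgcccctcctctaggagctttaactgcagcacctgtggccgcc
The Cldn4 window held 2 matches to TGANTCA, a motif that reads the same on both strands, with first bases 240 and 158 bases before the start. The RefSeq table held 9 promoters of 7 of the 9 genes, and the Cldn4 promoter was the 1 with a match, against 6.75% of all 32851 promoters of this length. The grainyhead-like motif AACCGGTT, likewise the same on both strands and without overlap with the AP-1 matches, was in 0 of the 9 promoters and in 0.116% of all promoters. A match is a run of letters and not a measured binding site.

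Library totals ran from 7600567 to 15912863 counts. A gene was called where its edgeR quasi-likelihood test gave a Benjamini-Hochberg adjusted p under 0.05. Calls covered 21.3% of the 14028 genes tested, with 9.74% higher and 11.6% lower in the blister group. Higher genes made up 45.7% of these calls with TMM scaling, 34.4% with upper-quartile scaling and 16.1% with library size alone, which moved the median log2 fold change of all genes by -0.25. Basal keratinocyte markers were abundant in both groups, with a summed level over 7 genes of 43178 to 60658 CPM (counts scaled to a common library size with TMM factors) in blister and 24395 to 24930 CPM in control libraries. Markers of other cells also moved: 14 of 17 tested hair follicle markers and 6 of 10 dermal fibroblast markers were called lower and 10 of 10 tested neutrophil markers higher. Xist, which marks female cells, reached 838 CPM in blister 1, 879 CPM in blister 2 and 1409 CPM in control 1, but only 0.512 to 16.9 CPM in the other 3 libraries, so the sexes were not balanced between the groups.

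Cldn3 fell in healing epidermis, while the abundant genes Cldn1, Cldn4 and Tjp1 did not pass the test. Of the 8 genes tested, 1 (Cldn3) was called lower and 0 were called higher by edgeR, against 11.6% and 9.74% of all tested genes. At an unadjusted p under 0.05 edgeR had Cldn3 and Cldn8 lower, 2 of the 8, against 20.0% of all tested genes. The same 2 were called lower by DESeq2, against 14.4% of all, and by edgeR with library size alone, against 20.2%. With 8 genes, 2 is near these shares. In 3 of the 8 (Cldn3, Cldn7 and Cldn8) every blister library lay below every control library, as was so for 23.2% of all tested genes, and in 0 of the 8 above (21.4% of all). In either direction the groups did not overlap for 44.6% of all tested genes. The median log2 fold change of the 8 was -0.06, beside 0.00 for all genes tested. The log2 fold change was under 0.5 in size for 5 of the 8 and for 63.7% of all tested genes.

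**Figure D1:**
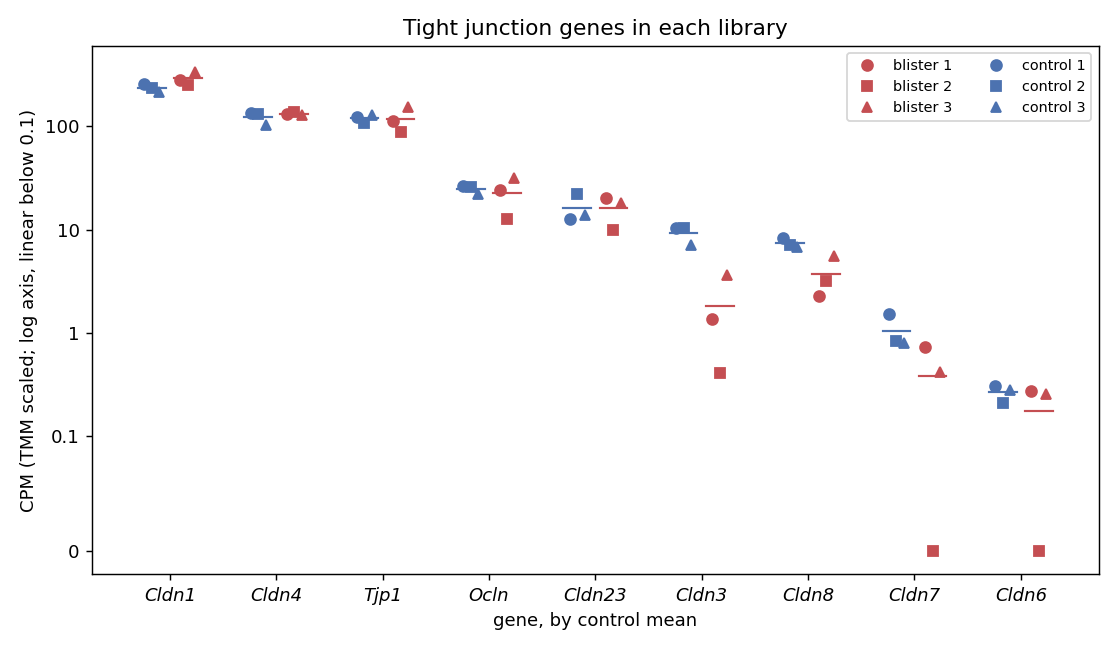
CPM of the 9 genes (y axis, log scale that turns linear below 0.1) in each library, controls in blue and blisters in red, with the mean of 3 libraries as a bar. Cldn1, Cldn4 and Tjp1 lie near or above 100 CPM in both groups, while the 3 blister points of Cldn3, Cldn8 and Cldn7 lie below the control points.

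Cldn1 encodes the claudin on which the water barrier of newborn mouse skin depends. Blister 1, 2 and 3 had 279, 253 and 339 CPM, and control 1, 2 and 3 had 254, 235 and 213 CPM. Blister 3 was the highest library, and blister 2 lay just under control 1, so the groups overlapped. The log2 fold change was 0.31 ± 0.15 (SE; edgeR adjusted p = 0.161), with a 95% interval from a 0.977-fold to a 1.57-fold blister level.

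Cldn4 encodes a claudin that seals against sodium in many epithelia and is found in the granular layer. It was the most even of the 9 genes across blister libraries, at 132, 136 and 128 CPM, and was at 133, 133 and 104 CPM in controls. Control 3 stood apart below the other 5 libraries, which lay close together. The log2 fold change was 0.10 ± 0.13 (SE; edgeR adjusted p = 0.597), and the 95% interval ran from 0.871-fold to 1.32-fold.

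Cldn23 encodes a less studied claudin of differentiated epithelial cells. Its blister libraries were at 20.5, 9.91 and 18.1 CPM and its controls at 12.7, 22.0 and 13.8 CPM. Either group held both high and low libraries, so they overlapped. Both means of Cldn23 were 16.2 CPM, with SDs of 5.54 and 5.08 (n = 3 each), and its log2 fold change was 0.01 ± 0.32 (SE; edgeR adjusted p = 0.987). The 95% interval, 0.603-fold to 1.68-fold, is wider than those of Cldn1 and Cldn4.

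Ocln and Tjp1, the strand protein and the scaffold among the 9 genes, were lowest in blister 2 and highest in blister 3. Ocln was at 24.2, 12.8 and 31.3 CPM in blister libraries and at 26.2, 25.6 and 22.2 CPM in controls. The 3 controls lay inside the span of the blister libraries, and the log2 fold change was -0.10 ± 0.29 (SE; edgeR adjusted p = 0.815, 95% interval 0.581-fold to 1.49-fold). Tjp1 was at 112, 88.1 and 155 CPM in blister libraries and at 123, 107 and 128 CPM in controls. Here too the controls lay inside the blister span, and the change was -0.01 ± 0.20 on the log2 scale (SE; edgeR adjusted p = 0.973, 95% interval 0.715-fold to 1.38-fold).

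Cldn3, which encodes a sealing claudin of many simple and glandular epithelia, was the 1 gene of the 9 that was called lower. It had 15, 3 and 43 counts in blister 1, 2 and 3, or 1.38, 0.413 and 3.65 CPM. In control 1, 2 and 3 it had 136, 147 and 125 counts, or 10.4, 10.3 and 7.11 CPM. Every blister library lay below every control, blister 2 the lowest and blister 3 the nearest to the controls. Mean Cldn3 was 9.28 ± 1.88 CPM in controls and 1.81 ± 1.66 CPM in blisters (SD, n = 3). On the log2 scale it changed by -2.28 ± 0.58 (SE), or 4.87-fold lower (edgeR adjusted p = 0.0329; 95% interval of the log2 fold change -3.64 to -0.93).

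The Cldn3 call was lost without blister 1, control 1, control 2 or control 3 (edgeR adjusted p = 0.111, 0.0955, 0.084 and 0.0521), while the log2 fold change was -3.28 without blister 3. It was also lost with Xist as a covariate (edgeR adjusted p = 0.0531) or the dermal fibroblast markers (0.142), where the log2 fold changes of Cldn3 were -2.26 and -3.12. Calls over all genes went from 2993 to 1731 with the Xist covariate and to 139 with the dermal covariate, so this loss was not particular to Cldn3. In these bulk libraries fewer cells that carry a transcript and less of it per cell cannot be told apart. Hair follicle markers moved with Cldn3: their summed level over 17 genes was 477, 400.3 and 1327 CPM in blister 1, 2 and 3 and 6023, 3655 and 3426 CPM in control 1, 2 and 3, with none of the 17 at 0 in a library. They too were lowest in blister 2 and highest among blisters in blister 3, and their part in the fall of Cldn3 was not tested. This order of the blister libraries was not particular to them, as Cldn1, Ocln, Tjp1 and the granular layer markers had it too. Nor was a fall in blisters particular to the follicle markers, of which 14 of 17 were called lower. So were 4 of 6 melanocyte, 4 of 9 sebaceous and upper follicle and 6 of 10 dermal fibroblast markers, against 11.6% of all tested genes. Of the granular layer markers, 1 was called higher and 1 lower of 14. Their summed levels were 7139, 4853 and 7291 CPM in blister 1, 2 and 3 and 6206 to 8979 CPM in control libraries. The annotation places an antisense gene, Wbscr25, across an exon of Cldn3, and without a stated strand setting their reads cannot be told apart.

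By a fixed measure of likeness, the root mean square difference of log2 CPM centred on the control mean over 6 libraries, the nearest of 11231 genes to Cldn3 were the hair keratin gene Krt83 (0.269) and the keratin-associated protein gene Krtap17-1 (0.286). Krt83 was at 2.57, 0.551 and 5.26 CPM in the blister libraries and 22.4, 15.5 and 10.2 CPM in the controls. Krtap17-1 was at 3.67, 1.10 and 6.11 CPM in the blister libraries and 25.2, 16.0 and 18.1 CPM in the controls. In both genes, as in Cldn3, blister 2 was the lowest library and blister 3 the highest of its group. Both were picked by these same values, so the shared order follows from the choice and is not a separate result. Sequences within the hair keratin and keratin-associated families are similar, and reads may be shared among them.

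**Figure D2:**
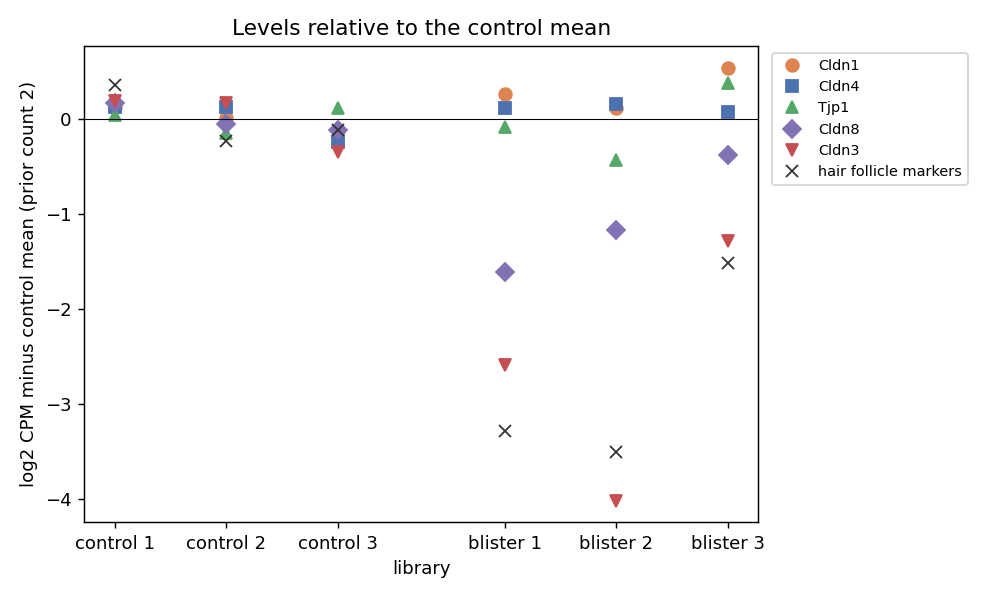
Log2 CPM minus the control mean (y axis, log2 units, prior count 2) for 5 of the genes and for the mean of the 17 hair follicle markers, by library. Cldn1, Cldn4 and Tjp1 stay within 0.54 of the control mean, while Cldn3 lies at -2.60, -4.02 and -1.29 in blister 1, 2 and 3 and the follicle markers at -3.29, -3.51 and -1.52.

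Cldn8, a claudin gene best known from the distal kidney tubule and colon, stood at 2.29, 3.17 and 5.60 CPM in the blister libraries, in order, while the controls had 8.29, 7.07 and 6.77 CPM. The groups did not overlap, and blister 3 was again the blister library nearest to the controls. The log2 fold change was -0.99 ± 0.34 (SE; 95% interval -1.79 to -0.19), which did not pass adjustment over all genes (edgeR adjusted p = 0.0757). It passed without blister 3 (edgeR adjusted p = 0.0157, log2 fold change -1.44), with DESeq2 (adjusted p = 0.0445) and with library size alone (edgeR adjusted p = 0.0495).

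Cldn7 and Cldn6 were near the limit of detection. Cldn7, whose protein binds the adhesion molecule EpCAM in many epithelia, had 8, 0 and 5 counts in blister and 20, 12 and 14 counts in control libraries. The 0 in blister 2 allows a level of up to 0.413 CPM (3 counts in this library, the smallest of the 6, for counting error only). In CPM the blister libraries lay below the controls, and the log2 fold change was -1.30 ± 0.70 (SE; edgeR adjusted p = 0.21, 95% interval -2.93 to 0.34). The log2 fold change of Cldn7 was -2.01 without blister 1, -0.84 without blister 2 and -0.95 without control 1. Cldn6, a claudin gene of embryonic epithelia, had 3, 0 and 3 counts in blister and 4, 3 and 5 counts in control libraries and was not tested. Pooled over a group its level was 0.200 CPM in blister (exact Poisson 95% interval 0.0735 to 0.436) and 0.267 CPM in control libraries (0.138 to 0.467), intervals that overlap widely. Cldn6 and its neighbour Cldn9 are close relatives, and few reads may be split between them.

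Divided by exon length, so that genes can be compared, Cldn4 and Cldn1 led in both groups. Cldn4 was at 68.0 ± 9.42 CPM per kb in controls and 72.9 ± 2.15 CPM per kb in blisters, and Cldn1 at 48.4 ± 4.23 and 60.0 ± 9.12 CPM per kb (SD, n = 3). Tjp1 followed at 15.3 CPM per kb in controls and 15.2 CPM per kb in blisters. By exon length each of these 3 levels stood clear of the next in both groups. With the longest transcript as length Cldn1 came to 56.5 CPM per kb in controls, beside 68.0 for Cldn4. In blisters it came to 70.1 CPM per kb, beside 72.9 for Cldn4. At that length the libraries of Cldn1 and Cldn4 overlapped in both groups. In controls Cldn23 (8.74), Cldn3 (7.37) and Ocln (5.85 CPM per kb) came next, with libraries that overlapped from one gene to the next, before Cldn8 (3.13), Cldn7 (0.543) and Cldn6 (0.155 CPM per kb), which were apart from each other. In blisters Cldn3 came seventh, at 1.44 ± 1.32 CPM per kb, overlapping with Cldn8 (1.57 CPM per kb) above it and Cldn7 (0.198 CPM per kb) below it.

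Within the summed CPM per kb of the 7 claudins, Cldn4 took 49.8% ± 1.11 in controls and 50.5% ± 5.28 in blisters, and Cldn1 35.6% ± 2.05 and 41.3% ± 3.16 (SD, n = 3). Cldn3 held 5.37% ± 0.496 in controls but 0.758%, 0.244% and 1.86% in blister 1, 2 and 3. Cldn8 held 2.31% ± 0.211 in controls and 1.07% ± 0.427 in blisters. Cldn1 and Cldn4 together made up 85.4% ± 1.45 in controls and 91.8% ± 2.57 in blisters. These shares are descriptions, and a share rises when another falls.

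**Figure D3:**
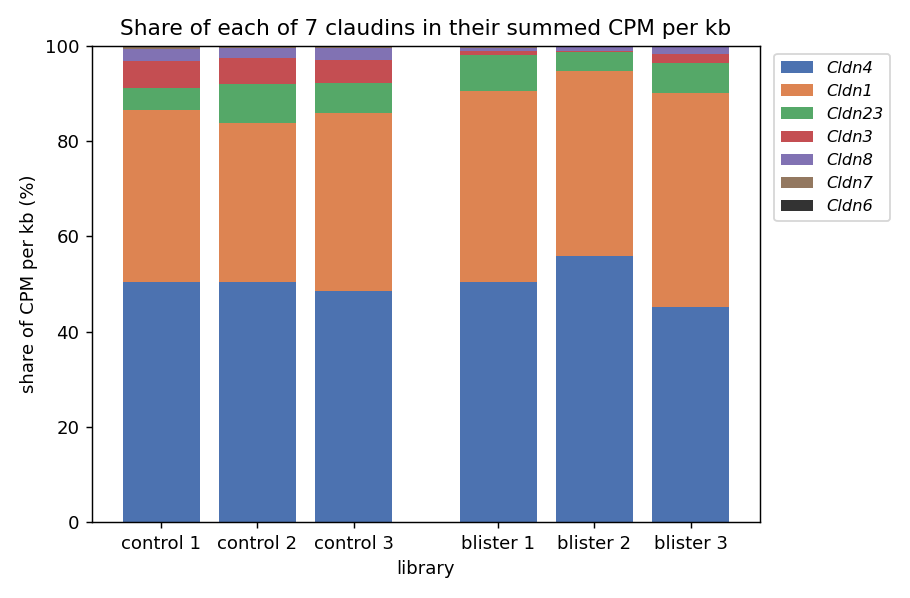
Stacked shares (y axis, % of the summed CPM per kb of 7 claudins) in each library, controls at the left and blisters at the right. Cldn4 (blue) and Cldn1 (orange) fill 83.8% to 86.5% of each control and 90.1% to 94.8% of each blister bar, and the Cldn3 band (red) is thinner in blisters.

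Among other genes of the junction, the claudins outside the 9 were mostly absent or scarce. Of 18 further claudin symbols in the files 6 passed the filter, of which 1 was called higher and 2 lower (9.74% and 11.6% of all tested genes were). The most abundant was the row named Cldn25, which rose from 68.4, 60.8 and 63.0 CPM in controls to 115, 106 and 108 CPM in blisters (change of 0.78 ± 0.10 on the log2 scale with its SE; edgeR adjusted p = 0.0074). RefSeq lists that symbol as an earlier name of both Cldnd1 and Cldn25-ps, so the gene behind the row is not settled. Cldn12, a claudin gene of many tissues, averaged 28.1 ± 6.32 CPM in blisters and 24.7 ± 3.03 CPM in controls (edgeR adjusted p = 0.491).

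Cldn5, the claudin gene of blood vessel endothelium, had 2 counts over the blister libraries and 219 over the controls, of which 195 were in control 3. It was called lower (edgeR adjusted p = 0.0394), with a log2 fold change of -5.84 (95% interval -9.55 to -2.13). The control to blister ratio of the pooled counts was 73.0 (95% interval 20.0 to 607, counting error only, without the spread between libraries). Its control mean was 4.29 CPM with control 3 and 0.884 CPM without it, where the call was lost (edgeR adjusted p = 0.054), as it was without control 1 or any 1 blister library (up to 0.124). Endothelial markers were also highest in control 3, with a summed level of 79.1 CPM against 12.6 and 18.4 CPM in control 1 and 2 and 6.06 to 13.9 CPM in blisters, and their part in the Cldn5 call was not tested. The dermal fibroblast markers were highest in control 3 too, and with their mean level as a covariate the log2 fold change of Cldn5 went from -5.84 to -0.82 (edgeR adjusted p = 0.743). With this covariate calls over all genes went from 2993 to 139. The mean log2 CPM of these markers was at most 5.31 in blisters and at least 6.08 in controls. Dermal content and blistering therefore cannot be told apart here. The Cldn5 call was also lost with limma-voom (adjusted p = 0.0574).

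Cldn14, known from the inner ear and kidney, fell from 2.15, 0.910 and 0.910 CPM in controls to 0.184, 0 and 0.340 CPM in blisters (edgeR adjusted p = 0.0383, and up to 0.121 in the 5 of 6 fits with 1 library left out that lost the call). Cldn10, a claudin gene of secretory epithelia, was at 0.551, 0.138 and 2.29 CPM in blisters and 6.44, 2.87 and 5.80 CPM in controls, groups that did not overlap (change of -2.24 ± 0.72 on the log2 scale with its SE; edgeR adjusted p = 0.0623). Without blister 3 the log2 fold change of Cldn10 was -3.72 (edgeR adjusted p = 0.0115). Cldn10 was also called with DESeq2 (adjusted p = 0.0131), limma-voom (0.0428) and library size alone in edgeR (0.045). As with Cldn3 and Cldn8, blister 3 was the highest of the blister libraries for Cldn10. Chosen after its values were seen, Cldn9 had 0 counts in blisters and 21 in controls, at least 4.67-fold lower against a floor of 3 counts over the blister group, and was removed by the filter.

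Membrane partners of the claudins differed by gene. Of 11 tested members of this list 0 were called higher and 3 lower, against 9.74% and 11.6% of all tested genes. Their median log2 fold change was -0.17. At an unadjusted p under 0.05 edgeR had 1 higher (19.0% of all tested genes were), the polarity gene Crb3, named after its values were seen (log2 fold change 0.51). Epcam, the gene of an adhesion molecule that binds claudin 7, was at 157, 225 and 186 CPM in blisters and 220, 238 and 179 CPM in controls, groups that overlapped (edgeR adjusted p = 0.509). F11r, the gene of the epithelial junctional adhesion molecule JAM-A, averaged 168 ± 15.8 CPM in blisters and 151 ± 16.5 CPM in controls (edgeR adjusted p = 0.419).

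The related genes Jam2 and Jam3, of endothelial and mesenchymal cells, were called lower (0.594 against 3.61 CPM and 1.73 against 5.43 CPM; edgeR adjusted p = 0.0454 and 0.0352). Control 3 was the highest library for both, at 7.28 and 8.82 CPM, and without it the control means were 1.78 and 3.73 CPM and the calls were lost (edgeR adjusted p = 0.104 and 0.0782). The Jam2 call was lost in 5 and the Jam3 call in 6 of the 6 fits that each omit 1 library (edgeR adjusted p up to 0.141 and 0.114). The summed dermal fibroblast markers were at 7732 CPM in control 3, 1439 and 1642 CPM in the other controls and 442 to 1494 CPM in blisters. With their mean log2 level as a covariate the log2 fold changes of Jam2 and Jam3 were -0.06 and -0.18. That mean level did not overlap between the groups, so dermal content and blistering cannot be told apart, and the cause of the falls was not tested. Ildr1, which encodes an angulin that places tricellular junctions, fell from 3.76, 3.92 and 3.36 CPM to 1.47, 1.38 and 1.70 CPM (edgeR adjusted p = 0.0181). The call of Ildr1 was lost without blister 1, control 1 or control 2 (edgeR adjusted p up to 0.0752).

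Scaffold and polarity genes held 2 called higher and 4 called lower among 26 tested (all genes 9.74% and 11.6%), with a median of -0.12. Cgnl1, which encodes paracingulin, an adaptor of tight and adherens junctions, fell from 57.2, 54.4 and 63.3 CPM in controls to 12.9, 11.6 and 23.5 CPM in blisters. The groups were far apart (change of -1.85 ± 0.26 on the log2 scale with its SE; edgeR adjusted p = 0.00769), and the call held in all 6 fits that each omit 1 library (edgeR adjusted p up to 0.0334). Amot, the gene of the YAP-binding protein angiomotin, fell from 12.5, 7.07 and 15.5 CPM to 1.74, 2.62 and 3.74 CPM (edgeR adjusted p = 0.0141, and 0.0514 without control 1). Mpdz, a scaffold with many PDZ domains, fell from 67.2 ± 15.3 to 35.8 ± 10.1 CPM (edgeR adjusted p = 0.036). The remaining call, Magi1, named after its values were seen, fell from 62.5 ± 3.08 to 37.8 ± 6.46 CPM (edgeR adjusted p = 0.0167).

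The scaffold genes called higher were Pard6g, which encodes a PAR6 polarity protein, and Prkcz, which encodes an atypical protein kinase C. Pard6g rose from 130, 140 and 143 CPM to 220, 178 and 201 CPM (change of 0.54 ± 0.12 on the log2 scale with its SE; edgeR adjusted p = 0.0225). Prkcz rose from 5.29, 5.04 and 5.01 CPM to 9.36, 7.85 and 7.56 CPM (edgeR adjusted p = 0.0468). The related genes Pard6a, Pard6b and Pard3 did not pass, with log2 fold changes of 0.19, -0.09 and 0.12 (edgeR adjusted p = 0.607, 0.73 and 0.685). Prkci, the more abundant kinase gene, averaged 190 ± 23.8 CPM in blisters and 169 ± 5.46 CPM in controls (edgeR adjusted p = 0.356), and Ybx3, whose protein binds ZO-1, averaged 835 ± 80.0 and 674 ± 72.7 CPM (edgeR adjusted p = 0.15). Of the 6 fits that each omit 1 library, 5 lost the call of Mpdz, 4 that of Pard6g and 5 that of Prkcz (edgeR adjusted p up to 0.0976, 0.101 and 0.134).

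Among 16 tested regulators of the junction, proteases and transcription factors included, 1 was called higher and 0 lower (all genes 9.74% and 11.6%). Epha2, a receptor kinase gene, rose to 122 ± 12.8 CPM from 93.7 ± 1.86 CPM in controls, by 0.38 ± 0.11 (SE) on the log2 scale (edgeR adjusted p = 0.0492), a call lost in 5 of the 6 fits with 1 library left out. Klf4, a transcription factor gene needed for the skin barrier, had 994, 577 and 789 CPM in blisters and 526, 597 and 540 CPM in controls (edgeR adjusted p = 0.109, and 0.036 without blister 2). Spint2, which encodes an inhibitor of the membrane proteases that act on the barrier, averaged 284 ± 36.7 CPM in blisters and 270 ± 53.6 CPM in controls (edgeR adjusted p = 0.796).

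Adherens junctions, the contacts that lie next to tight junctions, had 3 genes called higher and 1 lower among 12 tested (all genes 9.74% and 11.6%). The median was 0.14. Cdh1, the E-cadherin gene, rose from 701, 765 and 672 CPM in controls to 1070.3, 918 and 1056 CPM in blisters (change of 0.51 ± 0.13 on the log2 scale with its SE; edgeR adjusted p = 0.033). Jup, the plakoglobin gene, rose from 1542 ± 217 to 2583 ± 571 CPM (edgeR adjusted p = 0.0383). Plakoglobin is shared with desmosomes. Of the 4 nectin genes in the list, Pvrl1 rose from 206, 212 and 168 CPM to 354, 285 and 303 CPM (edgeR adjusted p = 0.0197), and Pvrl3 fell from 31.6 ± 1.54 to 13.9 ± 3.51 CPM (edgeR adjusted p = 0.0105). Pvrl2 and Pvrl4 did not pass, at log2 fold changes of -0.04 and 0.12 (edgeR adjusted p = 0.859 and 0.729). Ctnnb1 and Ctnna1, which encode catenins, did not pass (edgeR adjusted p = 0.204 and 0.292).

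**Figure D4:**
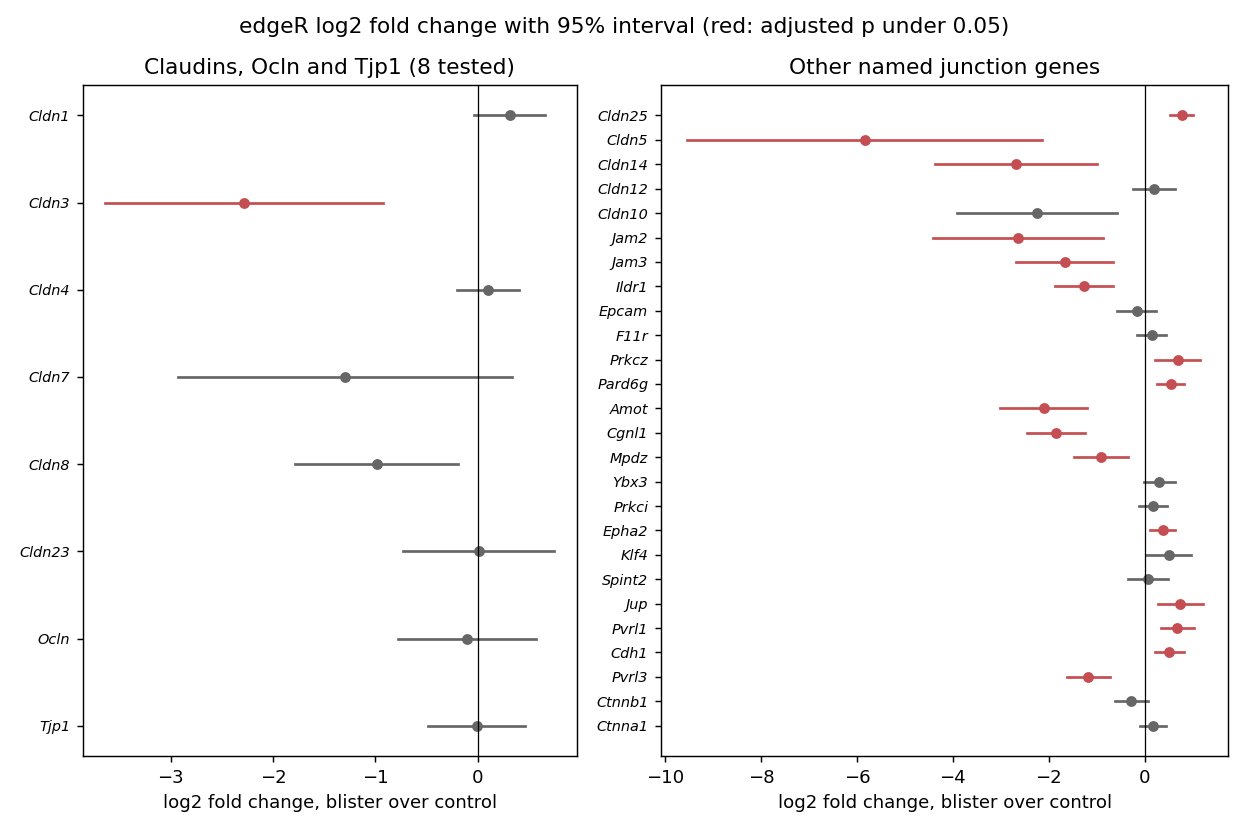
edgeR log2 fold change of blister over control (x axes, with different ranges) with its 95% interval, for the 8 tested genes at the left and for the other named junction genes at the right, red where the adjusted p was under 0.05. Cldn1, Cldn4, Cldn23, Ocln and Tjp1 lie at 0.31, 0.10, 0.01, -0.10 and -0.01 with intervals that include 0.

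Over these lists together, 7 of 71 tested junction genes outside the 9 were called higher (9.86%, against 9.74% of all genes) and 10 lower (14.1%, against 11.6%). Both shares are near those of all genes. The call of Cdh1 was lost in 4, that of Jup in 5 and that of Pvrl1 in 3 of the 6 fits that each omit 1 library (edgeR adjusted p up to 0.126, 0.127 and 0.0685), while those of Cldn25, Cgnl1 and Pvrl3 held in all 6. Junction genes called higher numbered 1, 8 and 7 without blister 1, 2 and 3, and 1, 2 and 1 without control 1, 2 and 3. Those called lower numbered 4, 5 and 11 without blister 1, 2 and 3, and 2, 6 and 5 without control 1, 2 and 3. Calls over all genes, in either direction, were 1028, 2073 and 4061 without blister 1, 2 and 3. They were 785, 1299 and 1315 without control 1, 2 and 3, against 2993 with all libraries.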

How the data were processed

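RNA-seq of 3 blister and 3 control libraries was analysed from raw read counts per gene, deposited by the authors as 1 table per library with no header. The submitters' processing notes name HISAT2 2.0.0 and featureCounts as tools and NCBIM37 and mm9 as builds; the featureCounts version and strand setting are not given there. Groups and replicate numbers came from the sample titles.

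Genes were tested in edgeR 4.0.16 (R 4.3.3) with quasi-likelihood F-tests, TMM scaling, filterByExpr by group (minimum count 10, minimum total 15), the group as the single term and Benjamini-Hochberg adjustment over 14028 genes, two-sided, with a threshold of 0.05. The SE is the log2 fold change over the square root of F, and 95% intervals use the fit's degrees of freedom. CPM are counts scaled by library size and TMM factor. Lengths are exon unions of GENCODE M21, from GRCm38, and promoters come from the RefSeq table of GRCm38.p6, so no coordinate was joined to the counts.

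The 9 genes and all lists were chosen with earlier results of these data known. Named genes were the 9, in each junction list up to 3 called genes a direction, ranked by fold change, whose groups did not overlap, and the 2 most abundant uncalled genes per kb, and the 2 nearest profiles (mean of at least 5 CPM) of each called gene. Other genes were named after their values were seen, and 1 gene of the membrane list is not reported here or counted. The lists of follicle, sebaceous, simple epithelium, macrophage, melanocyte, spinous, basal, granular, dermal, endothelial and neutrophil markers were counted in the same fit. Of sebaceous markers 0 of 9 tested rose and 4 fell, of simple epithelium markers 1 of 6 rose and 0 fell, of macrophage markers 2 of 9 rose and 0 fell, of melanocyte markers 0 of 6 rose and 4 fell, of spinous markers 2 of 7 rose and 0 fell, of basal markers 3 of 7 rose and 0 fell and of endothelial markers 0 of 6 rose and 1 fell. Over all tested genes 9.74% were called higher and 11.6% lower. Within-group libraries differed beyond sampling noise and none was a copy. The script was tested on simulated data. Alternatives were other scalings, filters and tools (DESeq2 1.42.0, voom in limma 3.58.1, robust edgeR), a replicate block, covariates and left-out libraries. Plots were drawn with matplotlib 3.10.9.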

Additional observations from a re-analysis of the deposited data

How the results depend on the processing

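Of 2993 calls over all genes, counts were 1731 with the Xist level (log2 CPM) as covariate, 139 with the mean of dermal fibroblast markers as a covariate, and 785 to 4061 with 1 library left out. Of the 9 genes (8 tested), 1 was called lower, beside 11.6% of all tested genes. With library size alone 2 were (20.2% of all tested genes), as with DESeq2 (14.4%). The number was also 2 with blister 3 and control 3 left out, where 2939 of 14068 genes were called in either direction. It was 0 with the Xist or dermal covariate and 0 to 2 with 1 library left out. In each of these fits 0 of the 9 were called higher. Cldn3 had a negative log2 fold change in all 18 alternatives, from -3.41 to -1.86, and lost its call in 7 (adjusted p up to 0.142). Other junction genes called higher numbered 7, against 2 with library size alone, 3 with the Xist covariate, 0 with the dermal covariate, 2 without blister 3 and control 3, and 1 to 8 with 1 library left out. Those called lower numbered 10, against 17 with library size alone, 6 with at least 5 CPM in 3 libraries, 0 with the dermal covariate, and 2 to 11 with 1 library left out.

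The replicate number as a block gave 0 of the 9 genes called lower (Cldn3 adjusted p = 0.0562) and 4 other junction genes called higher, beside 2876 calls over all genes. The labels do not say that the numbers pair libraries, and the correlations of deviations for the same number were 0.21, -0.26 and 0.01, with blister 1 closest to control 2 (0.34).

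Signs near 0 turned. With library size alone log2 fold changes were -0.15 for Cldn4, -0.25 for Cldn23, -0.080 for Cldn12, -0.10 for F11r, -0.088 for Prkci, -0.18 for Spint2 and -0.071 for Ctnna1. With the dermal covariate they were -0.13 for Cldn4, -0.75 for Cldn23, -0.063 for F11r and -0.31 for Spint2, and with the Xist covariate 0.057 for Tjp1 and -0.040 for Spint2. Cldn23 was at -0.060 with upper-quartile scaling, -0.022 with at least 5 CPM in 3 libraries and -0.17 without blister 3 and control 3. With 1 library left out the log2 fold change ran from -0.010 to 0.16 for Cldn4, -0.18 to 0.30 for Cldn23, -0.40 to 0.18 for Ocln, -0.25 to 0.17 for Tjp1 and -0.080 to 0.19 for Spint2. The cause was not tested. The longest transcript as length was an alternative chosen after seeing the data. With it Cldn1 and Cldn4 took 86.1% of the summed CPM per kb of the 7 claudins in controls and 92.3% in blisters. Levels below about 1 CPM rest on few counts.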
